A study of Mus musculus with 9 samples.

Results

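Scd1 (NCBI gene 20249), Fasn (14104) and Acss2 (60525), which encode 3 enzymes of hepatic fatty acid synthesis, were followed in the livers of mice under short-term dietary restriction. These 3 genes were chosen by their TPM (the authors' transcript abundance, normalised for transcript length and library total) in the same FED, IF and FMD livers that are described here, out of 5608 genes listed in the table. Their levels and fold changes are therefore given as a description, without a test. All animals were wt C57BL/6J mice, and their age is not given in the sources used here. The FED group had free access to the standard diet throughout. The IF group was intermittently fasted, with food withheld on day 1 and again on day 4, 24 h each time, and free feeding in between. The FMD group received a commercial fasting-mimicking diet on days 2 to 4, at 50% of the average calorie intake on the first of these days and 10% afterwards, and this diet held a larger share of fat and a smaller share of carbohydrate and protein than the standard diet. IF and FMD mice had free access to water and hydrogel. All mice were sacrificed on day 5, and RNA from the livers of 3 animals in each group was sequenced, with library numbers 1, 2 and 3 for FED mice and for IF mice, and 1, 2 and 4 for FMD mice.

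De novo lipogenesis turns surplus carbohydrate into fatty acids, and the liver is one of its main sites. ACSS2 in the cytosol and nucleus activates acetate to acetyl-CoA, next to ATP citrate lyase (ACLY), which makes the same product from citrate. Acetyl-CoA carboxylase converts it to malonyl-CoA, fatty acid synthase (FASN) joins the units into palmitate, and stearoyl-CoA desaturase 1 (SCD1) places a double bond into stearate and palmitate to give oleate and palmitoleate. Genes of this pathway are known targets of the insulin-activated factor SREBP-1c, encoded by Srebf1, and of the carbohydrate sensor ChREBP. Liver Scd1 is also known to be repressed by polyunsaturated fatty acids.

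The promoters of the members are shown so that the motifs of genes of one pathway can be set side by side. The RefSeq table used here (build GRCm38.p6) held a promoter for 2 of the 3 members, Fasn and Acss2, and the promoter of Acly is shown beside them as the gene of the pathway whose profile over the libraries was close to both. Each runs 5′ to 3′ on the strand of the gene, from 250 bases before to 50 bases after the annotated start. Capitals mark CCAAT (the core bound by the factor NF-Y) and GGGCGG (a GC box), each on either strand. The Fasn promoter lies at chr11:120824498-120824797 on the minus strand, that of Acss2 at chr2:155517793-155518092 on the plus strand and that of Acly at chr11:100527951-100528250 on the minus strand.
Fasn: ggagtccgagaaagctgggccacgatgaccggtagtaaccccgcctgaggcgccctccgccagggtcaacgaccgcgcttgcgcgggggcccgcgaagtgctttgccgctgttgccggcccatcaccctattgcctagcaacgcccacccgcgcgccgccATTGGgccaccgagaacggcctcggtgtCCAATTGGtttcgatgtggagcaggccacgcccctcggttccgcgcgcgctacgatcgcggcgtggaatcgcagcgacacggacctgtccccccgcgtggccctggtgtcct
Acss2: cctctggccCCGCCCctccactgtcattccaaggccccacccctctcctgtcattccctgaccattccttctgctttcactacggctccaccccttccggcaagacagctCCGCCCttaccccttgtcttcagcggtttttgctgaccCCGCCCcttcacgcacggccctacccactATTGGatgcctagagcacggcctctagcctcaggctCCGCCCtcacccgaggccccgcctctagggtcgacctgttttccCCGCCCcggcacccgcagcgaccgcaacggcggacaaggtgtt
Acly: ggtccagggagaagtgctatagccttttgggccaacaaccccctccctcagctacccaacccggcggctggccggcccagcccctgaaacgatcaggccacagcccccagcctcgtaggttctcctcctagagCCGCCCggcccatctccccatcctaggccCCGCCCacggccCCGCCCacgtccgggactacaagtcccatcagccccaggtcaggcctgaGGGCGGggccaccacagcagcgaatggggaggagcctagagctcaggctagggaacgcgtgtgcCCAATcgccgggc

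The Fasn promoter held 3 CCAAT matches, at -90, -62 and -59 from the start, of which the latter 2 overlap on opposite strands, and no GC box. That of Acss2 held 1 CCAAT match at -73 and 5 GC boxes. That of Acly held 1 CCAAT match, at 38 after the start, and 4 GC boxes. CCAAT occurred in 37.4% and the GC box in 35.7% of 32851 mouse promoters of the same length, and in 37.4% and 66.7% of the 4860 promoters of genes tested here. None of the 3 held TCACNCCAC, a sterol response element in the form searched, or the E-box CACGTG, which occurred in 1.24% and 7.15% of all promoters and in 1.09% and 10.8% of those of genes tested here. The GC content was 69.3% for Fasn, 65.0% for Acss2 and 68.7% for Acly, against a median of 52.7% over all promoters. A match describes these letters only.

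Scd1 lies on chromosome 19 next to its paralogs Scd3, Scd2 and Scd4, Fasn on chromosome 11 and Acss2 on chromosome 2. Of the 4783 windows of 50 bases in the longest Scd1 transcript (GENCODE M21), 223 (4.66%) also occurred in transcripts of other genes, most often Scd3 (167 windows) and Scd2 (145 windows). Of 10001 windows of Fasn and 2882 of Acss2, 0 were shared. Reads from the shared stretches of Scd1 could have been counted for a paralog or the reverse. Scd2, Scd3, Scd4, Acss1 and Acss3 were not analysed here.

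The listed genes took 26.3% to 29.3% of each library's TPM in FED, 32.9% to 34.9% in IF and 34.9% to 43.0% in FMD mice, so their overall level was higher in the restricted groups. Within FMD, the share was 43.0% in library 1, 36.3% in library 2 and 34.9% in library 4. Over the 4665 genes that reached a mean of 1 TPM, the median log2 fold change in IF vs FED was 0.24. In FMD it was 0.48 against FED and 0.24 against IF. Fold changes are given on the log2(TPM + 1) scale from the deposited values, and again from scaled values, for which every library was divided by its median ratio to a reference of geometric means. A gene other than the 3 members was called at an adjusted p under 0.05 (limma, Benjamini-Hochberg over 4665 genes) and a change of more than 1.5-fold in either direction. IF and FMD were both compared with the same 3 FED libraries, so these comparisons are not independent. Shares of genes called refer to the listed genes that were tested, a part of the transcriptome, and not to all liver genes. The paper, over its own set of genes, reported more genes lower than higher in either regimen against fed mice. In whole liver, fewer cells of a type and less RNA per cell cannot be told apart. Of 8 hepatocyte markers, the table held Ass1, a urea cycle enzyme, at 2335 to 5153 TPM in all 9 libraries.

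Among the listed genes, Scd1 was one of the most abundant in the FED and IF livers and far less abundant in the FMD livers. Its level was 1604, 1170 and 1899 TPM in the 3 FED mice. In the IF mice it was 1558, 2395 and 1503 TPM. In the FMD mice it was 42.9, 21.03 and 44.4 TPM. The FED and IF ranges overlapped, and the highest FMD library lay far below the lowest library of either other group. Ranked by TPM among the 5608 listed genes, Scd1 stood at 12 to 23 in FED, 10 to 22 in IF and 969 to 1713 in FMD libraries.

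The mean TPM of Scd1 was 1558 ± 367 in FED mice, 1819 ± 500 in IF mice and 36.1 ± 13.1 in FMD mice (SD, n = 3 each). The FMD mean was 2.32% of the FED mean and the IF mean 117% of it. On the log2 scale the difference for FMD vs FED was -5.44 (SE 0.29), which is 43.3-fold lower, and after scaling it was -5.98. For FMD vs IF it was -5.66 (SE 0.29), or 50.4-fold lower, and -5.92 after scaling. For IF vs FED it was 0.22 (SE 0.29) from deposited values and -0.06 after scaling, so the sign of this small difference turned with the scaling. Among the 4665 genes ordered from the lowest fold change, Scd1 ranked 2 in FMD vs FED, 1 in FMD vs IF and 2190 in IF vs FED.

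**Figure D1:**
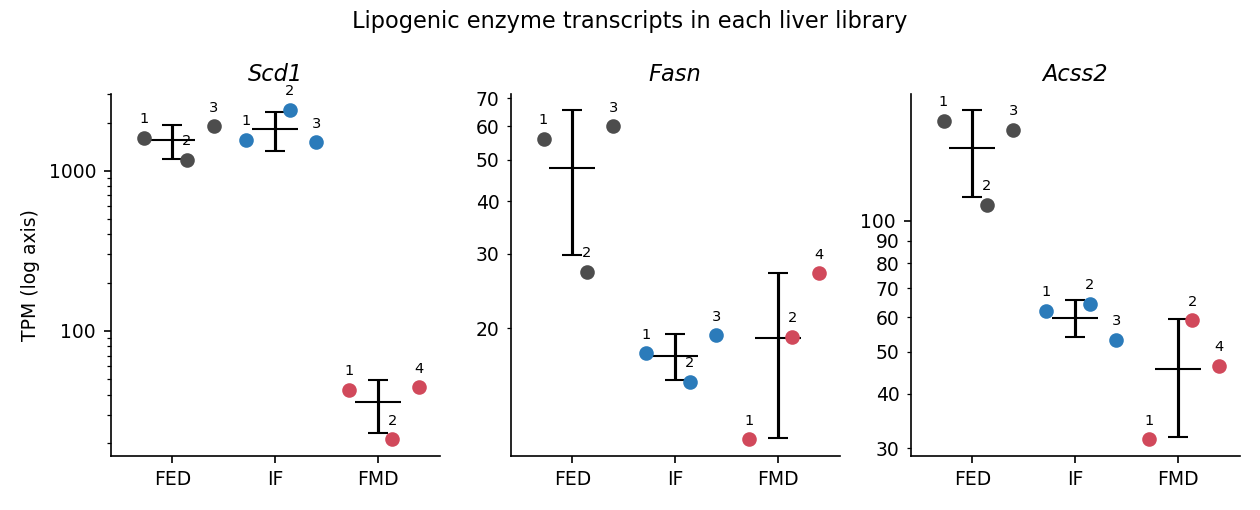
TPM (log axis) of Scd1, Fasn and Acss2 in each liver library, with the number of the library beside its point; horizontal marks are group means and bars are SD (n = 3). Scd1 is at 21.03 to 44.4 TPM in FMD and at 1170 TPM or more in all FED and IF libraries. Fasn is at similar levels in IF and FMD, and Acss2 has a lower mean in FMD than in IF, with overlapping ranges.

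Fasn was lower in both restricted groups than in FED and did not separate the 2 regimens. Its level was 56.0, 27.2 and 60.0 TPM in the FED mice. In the IF mice it was 17.5, 15.0 and 19.3 TPM. In the FMD mice it was 11.0, 19.1 and 27.0 TPM. FED library 2 was the lowest of its group and exceeded the highest FMD library by a small margin only, 27.24 against 27.0 TPM, and the FMD range enclosed all IF values.

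The mean TPM of Fasn was 47.8 ± 17.9 in FED mice, 17.2 ± 2.16 in IF mice and 19.0 ± 8.03 in FMD mice (SD, n = 3 each), so that the IF mean was 36.1% and the FMD mean 39.8% of FED. The log2 difference was -1.35 (SE 0.33) for IF vs FED, or 2.54-fold lower, and -1.29 (SE 0.33) for FMD vs FED, or 2.44-fold lower. After scaling these values were -1.62 and -1.81. The difference between the regimens, FMD vs IF, was 0.06 (SE 0.33) and -0.19 after scaling. Without FMD library 1 it was 0.39 and without FMD library 4 it was -0.23, so its sign depended on the library left out. Fasn ranked 15 from the lowest fold change in IF vs FED, 25 in FMD vs FED and 1020 in FMD vs IF.

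Acss2 was lower in every IF and FMD library than in any FED library. Its level was 169.9, 108.8 and 161.9 TPM in the FED mice. In the IF mice it was 62.1, 64.4 and 53.2 TPM. In the FMD mice it was 31.5, 59.1 and 46.4 TPM. The IF and FMD ranges overlapped, since FMD library 2 was above IF library 3.

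The mean TPM of Acss2 was 147 ± 33.2 in FED mice, 59.9 ± 5.92 in IF mice and 45.6 ± 13.8 in FMD mice (SD, n = 3 each), or 40.8% and 31.1% of the FED mean in the restricted groups. The log2 difference was -1.26 (SE 0.23) for IF vs FED, 2.39-fold lower, and -1.68 (SE 0.23) for FMD vs FED, 3.21-fold lower. After scaling these were -1.54 and -2.23. For FMD vs IF the difference was -0.43 (SE 0.23), and -0.69 after scaling, with a rank of 101 from the lowest fold change. Against FED, its ranks were 19 in IF and 12 in FMD.

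The ratio of one enzyme to another within a library does not depend on the scaling of that library. Scd1 to Fasn was 28.6, 43.0 and 31.7 in FED, 89.2, 160 and 77.9 in IF, and 3.92, 1.10 and 1.64 in FMD. Scd1 to Acss2 was 9.44, 10.7 and 11.7 in FED, 25.1, 37.2 and 28.2 in IF, and 1.36, 0.356 and 0.956 in FMD. Both ratios with Scd1 thus lay in 3 ranges without overlap, highest in IF and lowest in FMD. Acss2 to Fasn was 3.03, 3.996 and 2.70 in FED, 3.56, 4.30 and 2.76 in IF, and 2.87, 3.09 and 1.72 in FMD, and here the groups overlapped. The order of levels was Scd1 above Acss2 above Fasn in 7 of the 9 libraries, and in FMD libraries 2 and 4 Acss2 stood above Scd1.

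**Figure D2:**
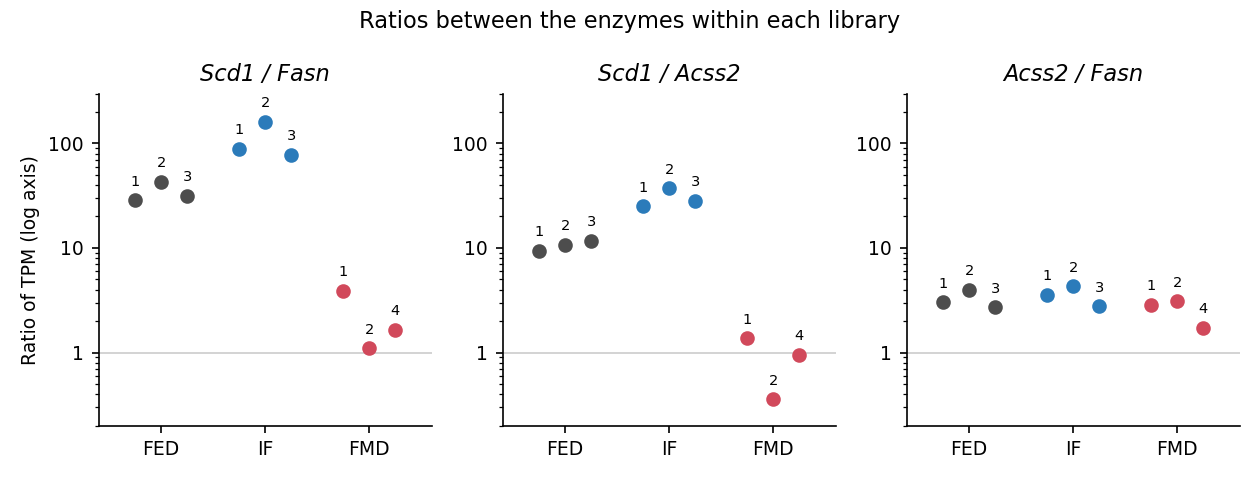
Ratio of the TPM of one enzyme to another in each library (log axis), with library numbers beside the points and a grey line at equal levels. Scd1 to Fasn spans 28.6 to 43.0 in FED, 77.9 to 160 in IF and 1.10 to 3.92 in FMD, whereas Acss2 to Fasn stays between 1.72 and 4.30 in all 9 libraries.

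Within groups the 3 genes did not always vary together. FED library 2 had the lowest level of all 3 members in its group. It was also the lowest FED library for 12 of the 18 other pathway genes tested and for 6 of 6 cholesterol synthesis genes. Among regulators the tally was 6 of 12 and among beta-oxidation genes 3 of 11, against 40.6% of the 4665 genes tested. This tally was added after the values were seen. In IF, library 2 had the highest Scd1 and Acss2 and the lowest Fasn. In FMD, library 2 had the lowest Scd1 and the highest Acss2, while library 1 had the lowest Fasn and Acss2. The coefficient of variation was 23.6%, 27.5% and 36.2% for Scd1 in FED, IF and FMD, 37.4%, 12.6% and 42.2% for Fasn, and 22.6%, 9.88% and 30.3% for Acss2.

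Likeness between genes was measured as the root mean square difference of log2(TPM + 1) over the 9 libraries, each gene centred on its own mean. It was 0.35 between Fasn and Acss2, 2.25 between Scd1 and Acss2, and 2.46 between Scd1 and Fasn. The 5 nearest genes to Fasn were Pmvk (0.22), Acly (0.31), the retinol dehydrogenase Rdh11 (0.33), Acss2 (0.35) and Sqle (0.37), of which Pmvk, phosphomevalonate kinase, and Sqle, squalene epoxidase, are enzymes of cholesterol synthesis. The nearest to Acss2 were Ttc39c (0.24), the growth factor receptor gene Egfr (0.32), Acly (0.34), Paxx (0.34) and Fasn (0.35). No gene came as close to Scd1, for which the nearest were Apol9a (1.87), Apol9b (1.97), Orm1 (2.02), Tsc22d1 (2.05) and Cela1 (2.08).

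The nearest genes to Scd1 shared a low level in FMD but moved far less. Apol9a, an interferon-inducible apolipoprotein L gene, was at 53.0 to 81.8 TPM in FED, 31.1 to 43.2 in IF and 11.2 to 17.3 in FMD. Orm1, which encodes the acute phase plasma protein orosomucoid, was at 1371 to 2107 TPM in FED, 720 to 991 in IF and 365 to 586 in FMD. Both were already lower in IF than in FED, unlike Scd1. Cela1 was lower too, with a log2 fold change of -1.88 in IF vs FED. For Apol9b and Tsc22d1 this value was smaller in size, at -0.28 and -0.34, and their FED and IF ranges overlapped. Of the members, only Scd1 was far lower in FMD than in IF, where Fasn differed by 0.06 and Acss2 by -0.43. Leaving the members aside, 9 genes were called lower in FMD than in either other group, in 2 comparisons that share the FMD libraries. Of all genes tested, 1.59% were called lower against FED and 0.472% against IF. Of the 9 genes, 2, Ces2e and Gas1, had a log2 fold change above 0 in IF vs FED from deposited values. For Ces2e, a carboxylesterase, the values were 0.07 in IF vs FED and, in FMD, -0.80 against FED and -0.86 against IF. For Gas1, a growth arrest gene, they were 0.83, -0.73 and -1.56. Gas1 was at 1.79, 3.88 and 6.47 TPM in FMD and 8.36, 5.47 and 6.64 TPM in FED, so these ranges overlapped. The calls of Ces2e and Gas1 were not followed with 1 library left out. These 9 genes include near-identical copies (Apol9a and Apol9b), whose reads may be split between them.

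The other genes of fatty acid synthesis were taken from a list of 41 genes, of which 18 were tested. In IF vs FED, 2 of the 18 rose and 1 fell, against 10.3% of all genes tested called higher and 1.59% called lower. In FMD vs FED, 6 rose and 1 fell, against 35.5% called higher and 1.59% called lower. In FMD vs IF, 2 rose and 0 fell, against 4.67% called higher and 0.472% called lower. After scaling, the pathway counts were 2 higher and 4 lower in IF vs FED, where 3.69% of all genes were called higher and 3.45% lower. They were 2 higher and 6 lower in FMD vs FED, where 5.49% were called higher and 5.64% lower. They were 0 and 0 in FMD vs IF, where 1.11% were called in each direction. The median log2 fold change of the 18 genes was -0.16 in IF vs FED, 0.19 in FMD vs FED and 0.20 between the regimens, below that of all genes tested in each comparison.

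Among genes that supply acetyl-CoA and NADPH, against 1.59% of all genes tested called lower, 1 of 8 tested fell in each comparison with FED. This was Acly, at 119, 60.8 and 112 TPM in FED, 39.8, 40.8 and 36.2 in IF and 40.4, 38.3 and 44.5 in FMD, with no overlap between FED and the other groups. Its log2 fold change was -1.24 (SE 0.21, adjusted p = 0.0032) in IF and -1.16 (SE 0.21, adjusted p = 0.0016) in FMD vs FED by limma, and both calls held after scaling. The mean of Acly was 40.1% of FED in IF and 42.3% in FMD, next to 40.8% and 31.1% for Acss2, the other source of cytosolic acetyl-CoA in the list. Slc25a1, the mitochondrial citrate carrier that feeds Acly, had log2 fold changes of -0.23 and -0.19 and was not called. After scaling, Pgd in IF and Slc25a1, Idh1 and Rpe in FMD were called lower as well.

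The NADPH-producing genes of the pentose phosphate pathway were highest in FMD library 1. The overall level of the listed genes was also highest in this library, so part of such an excess was shared by many genes. G6pdx, the entry enzyme, was at 9.09 TPM in that library and at 1.89 and 1.62 TPM in the other FMD libraries, and Pgd was at 71.4 TPM against 27.5 and 21.3 TPM. Neither was called in FMD vs FED, with log2 fold changes of 0.30 (adjusted p = 0.51) and 0.15 (adjusted p = 0.70) by limma, and both values turned negative after scaling (-0.12 and -0.39). G6pdx has a near-identical copy in the mouse genome and its level is uncertain. FMD library 1 was also the FMD library with the lowest Fasn and Acss2, and Scd1 in it (42.9 TPM) lay close to that in FMD library 4 (44.4 TPM). Rpia, ribose-5-phosphate isomerase, rose in FMD vs IF (0.64, adjusted p = 0.042 by limma), a call that held in 2 of 9 fits with 1 library left out and not after scaling, with an adjusted p of up to 0.144 in these fits.

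Of the 4 genes tested at the malonyl-CoA and synthase step besides Fasn, 0 were called in IF and 2 rose in FMD relative to FED. Of all genes tested, 10.3% were called higher in IF and 35.5% in FMD, and 1.59% lower in each. Acaca, the carboxylase that commits acetyl-CoA to fatty acid synthesis, was at 10.7, 8.94 and 13.5 TPM in FED, 7.51, 9.22 and 8.10 in IF and 9.67, 9.71 and 10.4 in FMD. Its log2 fold change was -0.36 (adjusted p = 0.090) in IF and -0.13 (adjusted p = 0.45) in FMD vs FED by limma. After scaling the values were -0.62 and -0.63 and both were called lower. The 2 genes that rose in FMD were Mlycd, which degrades malonyl-CoA (0.73, adjusted p = 0.00066 by limma), and Oxsm, of mitochondrial fatty acid synthesis (0.62, adjusted p = 0.0088), neither of which was called after scaling. In IF vs FED Mlycd was at 0.58 (adjusted p = 0.0055 by limma), just under the fold limit. The call of Oxsm was lost without FED library 1 or FMD library 2, where the log2 fold change dropped to as little as 0.50. Acacb, Thrsp and Me1 were not analysed here.

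Desaturation and elongation genes other than Scd1 did not show its low level in FMD. Of 6 tested, 2 rose in IF and 4 in FMD relative to FED, against 10.3% and 35.5% of all genes tested, and 0 fell. After scaling, 2 were called higher and 1 lower in each of these comparisons. Fads2, the delta-6 desaturase of polyunsaturated fatty acids, was at 239.9, 235 and 273 TPM in FED, 286, 308 and 309 in IF and 468, 598 and 488 in FMD. It was thus highest in the group in which the delta-9 desaturase Scd1 was lowest, with a log2 fold change of 1.05 (SE 0.12, adjusted p = 0.00019 by limma) in FMD vs FED. This value was 0.50 after scaling, and not called. In IF vs FED it was 0.27 (adjusted p = 0.13) from deposited and -0.01 from scaled values. In FMD vs IF Fads2 rose by 0.77 (adjusted p = 0.013 by limma), a call that was lost without each of the IF libraries, with an adjusted p of up to 0.072, and after scaling.

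Elovl5, the elongase of polyunsaturated chains, was at 174, 160 and 201 TPM in FED, 319, 379 and 353 in IF and 544, 640 and 340.0 in FMD. It rose by 0.98 (adjusted p = 0.0086) in IF and 1.46 (adjusted p = 0.00043) in FMD vs FED by limma, and both calls held after scaling. Hacd3, a dehydratase of the elongation cycle, rose by 0.99 and 1.43 (adjusted p = 0.0014 and 7.7e-05), also after scaling. Elovl6, which extends the palmitate made by Fasn to the stearate used by Scd1, was at 8.21, 8.10 and 11.4 TPM in FED, 5.47, 7.80 and 5.63 in IF and 7.78, 8.16 and 8.87 in FMD. Its log2 fold change was -0.49 (adjusted p = 0.050) in IF and -0.13 (adjusted p = 0.48) in FMD vs FED by limma, and after scaling -0.74 and -0.62, both called lower. Without IF library 2 it was called lower in IF vs FED from deposited values too, at -0.63. Elovl6 and Acaca therefore differed from FED by less than Fasn and Acss2 did, on either scale, by their fold changes.

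**Figure D3:**
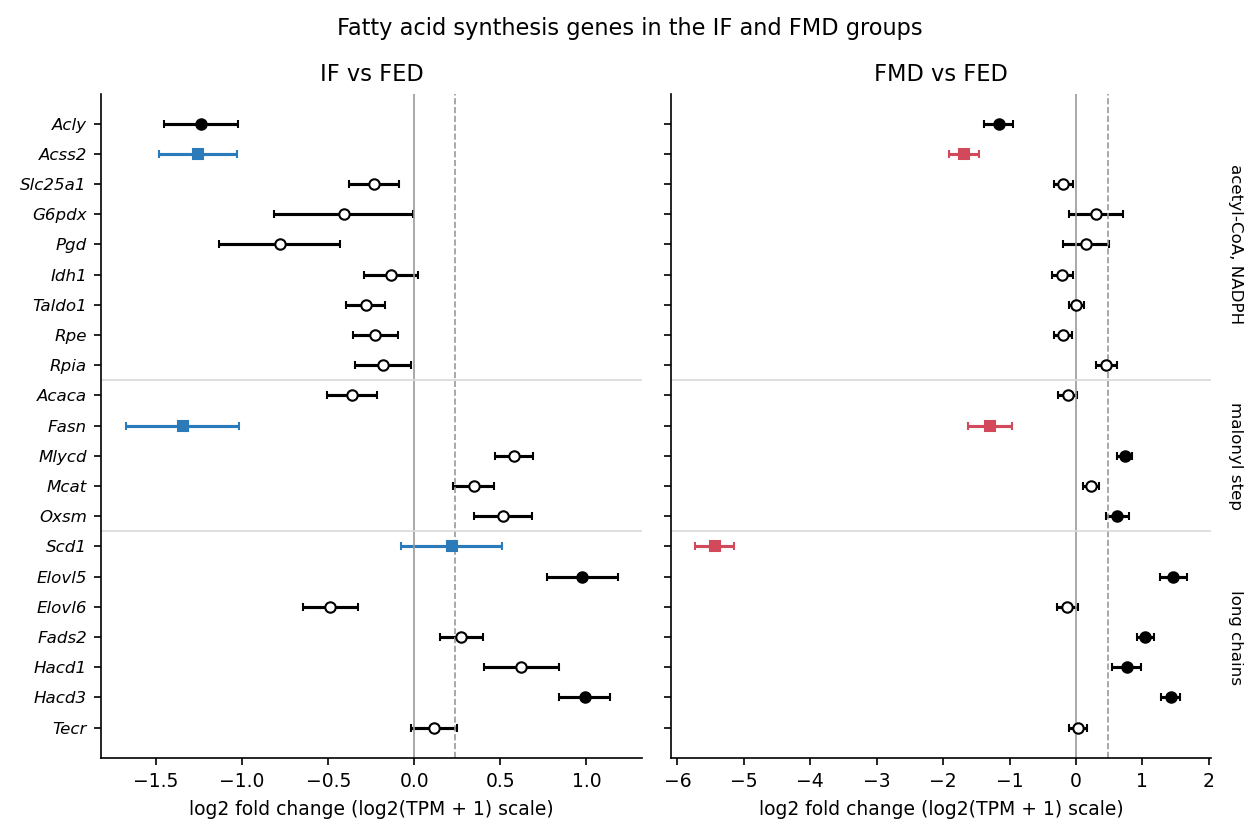
Log2 fold changes with SE of the members (coloured squares, no test) and the 18 other fatty acid synthesis genes (circles, filled where called by limma) in IF vs FED and FMD vs FED, on the log2(TPM + 1) scale with a dashed line at the median of all genes tested; the axes of the panels differ. Scd1 stands at 0.22 in IF and -5.44 in FMD, Fasn, Acss2 and Acly lie between -1.16 and -1.68 in both, and Elovl5 and Hacd3 are at 0.98 to 1.46.

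Among 12 regulators tested of 22 listed, Srebf1 was called lower and Insig2 higher in both comparisons with FED. Srebf1 was at 66.2, 28.1 and 44.6 TPM in FED, 19.0, 24.5 and 23.6 in IF and 17.1, 11.0 and 24.3 in FMD, with FED library 2 again the lowest of its group and still above all others. It fell by 0.95 (adjusted p = 0.048) in IF and by 1.34 (adjusted p = 0.0043) in FMD vs FED by limma on the log2 scale, and both calls held after scaling. The IF call held in 4 of 9 fits with 1 library left out, and was lost without FED library 1, FED library 3 or any of the IF libraries, with an adjusted p of up to 0.175. Srebf1 was at 48.2% of its FED mean in IF and 37.7% in FMD, next to 117% and 2.32% for Scd1. The table does not separate the SREBP-1a and SREBP-1c transcripts of Srebf1.

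Insig2, which retains the SREBP escort protein SCAP in the endoplasmic reticulum, was at 140, 117 and 113 TPM in FED, 237, 242 and 200.1 in IF and 357, 292 and 169.6 in FMD. It rose by 0.87 (adjusted p = 0.021) in IF and 1.08 (adjusted p = 0.0032) in FMD vs FED by limma, and was not called in either after scaling. The IF call was lost without FED library 2, FED library 3, IF library 1 or IF library 2, with an adjusted p of up to 0.083. Scap itself was at 37.3 to 51.5 TPM in all libraries, with log2 fold changes of -0.04 and 0.00 in IF and FMD vs FED. Nfya, a subunit of the CCAAT-binding factor NF-Y, was at 1.96 to 2.99 TPM in FED, 2.80 to 2.96 in IF and 3.43 to 5.69 in FMD. It rose in FMD vs FED by 0.72 (adjusted p = 0.0047 by limma) but not after scaling. In all, 1 of the 12 rose and 1 fell in IF, and 4 rose and 1 fell in FMD vs FED, next to backgrounds of 10.3% and 35.5% called higher and 1.59% called lower in each, whereas after scaling 2 fell in IF and 1 fell in FMD and 0 rose. Mlxipl, Nr1h3 and Insig1 were not analysed here.

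Genes of insulin and AMPK signalling were called only in the higher direction from deposited values, 1 of 12 in IF and 6 of 12 in FMD vs FED, next to 10.3% and 35.5% of all genes tested, and 0 were called in either after scaling. Their median log2 fold changes were 0.22 and 0.57, close to the 0.24 and 0.48 of all genes. Insr, the insulin receptor, rose by 0.59 (adjusted p = 0.017) in IF and 0.69 (adjusted p = 0.0031) in FMD by limma, and Irs2, its substrate, by 0.89 (adjusted p = 0.0020) in FMD. The IF call of Insr was lost without FED library 1, IF library 1 or IF library 2, with an adjusted p of up to 0.078, and its FMD call was lost without FMD library 2, where the log2 fold change was 0.54. Of 5 genes that link glucose to acetyl-CoA, 2 rose in each comparison with FED, where 10.3% and 35.5% of all genes were called higher, and 0 did after scaling. One was Mpc2, a subunit of the mitochondrial pyruvate carrier, which rose by 0.69 and 0.98 in IF and FMD (adjusted p = 0.0026 and 0.00017 by limma). The other in IF was the pyruvate dehydrogenase kinase gene Pdk1 (0.75, adjusted p = 0.035 by limma). Its call held in 3 of 9 fits with 1 library left out. The other in FMD was Pdha1 (0.68, adjusted p = 0.00097 by limma). Pklr was not analysed here.

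Cholesterol synthesis is another pathway driven by SREBP factors, and most of its tested genes were lower in FMD. Of 6 genes tested from a list of 23, 1 fell in IF and 5 fell in FMD vs FED, with the same counts after scaling. Of all genes tested, 1.59% were called lower in each comparison from deposited values, and 3.45% and 5.64% after scaling. With 1 library left out the IF count ran from 0 to 4, with 4 without FMD library 1 and 3 without FMD library 4, while the FMD count was 5 in each of these fits. Hmgcs1, the cytosolic HMG-CoA synthase, was at 161, 134 and 212 TPM in FED, 84.5, 89.6 and 129 in IF and 38.0, 59.7 and 84.3 in FMD. It fell by 1.51 on the log2 scale in FMD vs FED (adjusted p = 0.0016 by limma), and was at -0.74 (adjusted p = 0.075) in IF. Pmvk fell by 1.01 in IF and 1.08 in FMD on the log2 scale (adjusted p = 0.020 and 0.0057 by limma), and its IF call was lost without FED library 1, FED library 3, IF library 1 or IF library 2, with an adjusted p of up to 0.083. Sqle, Fdft1 and Cyp51 fell by 1.25, 1.08 and 1.23 in FMD (adjusted p = 0.0038, 0.0059 and 0.013 by limma).

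**Figure D4:**
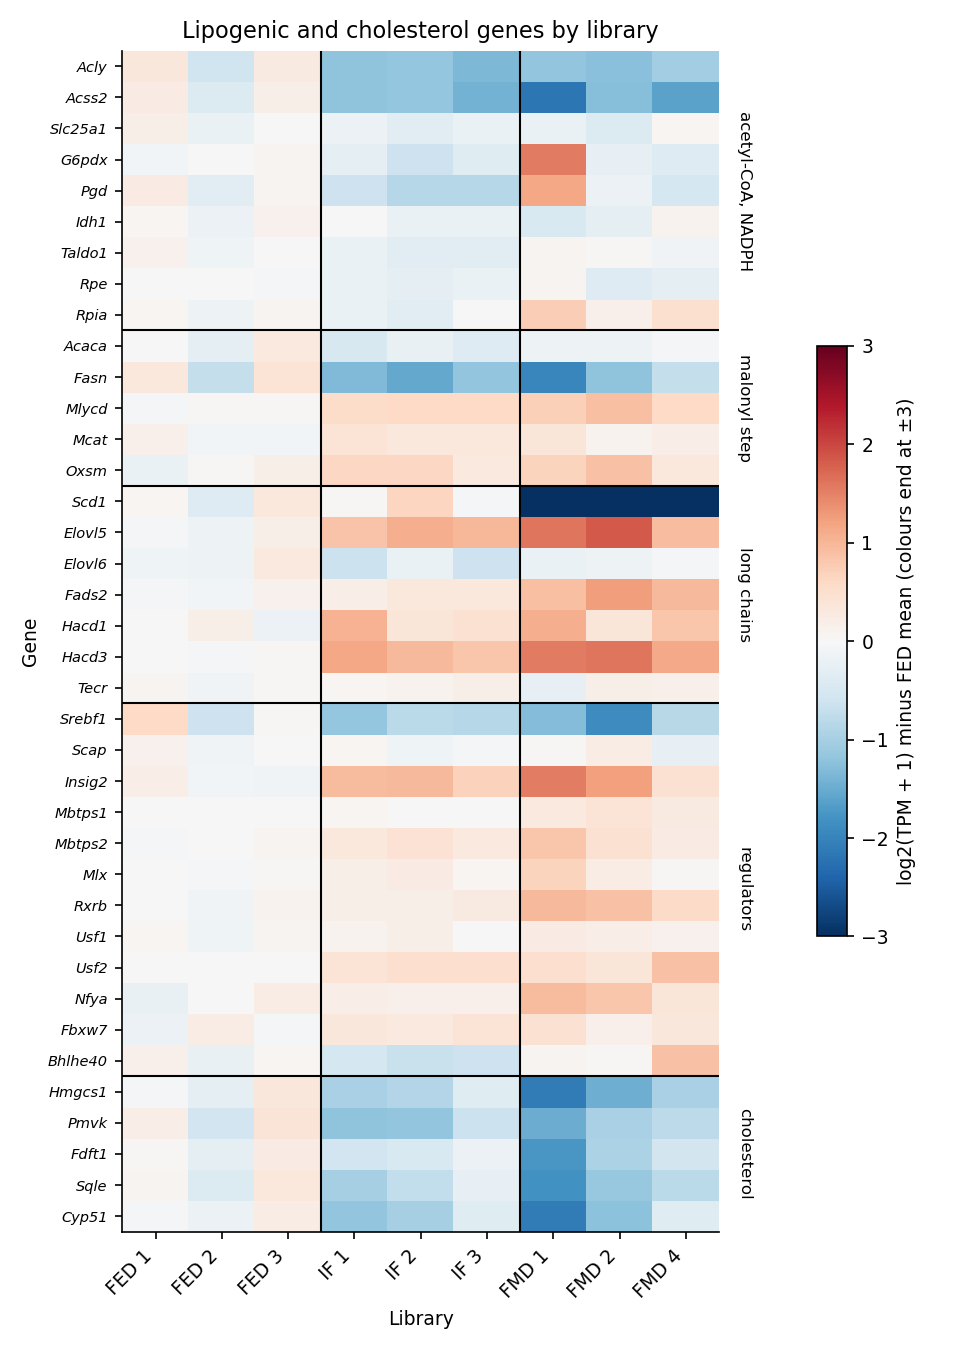
Difference of log2(TPM + 1) from the FED mean for every library (columns) and gene (rows) of the fatty acid synthesis and regulator lists, and for the 5 cholesterol genes called in FMD vs FED, with colours ending at 3 in either direction. Scd1 is not below the FED mean by more than a faint shade in any IF library and lies beyond the blue end of the scale in all FMD libraries, while Acly, Acss2 and Fasn are lower in IF and FMD libraries alike.

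Genes that esterify, store or burn fatty acids were called in the higher direction. Of 8 glyceride and lipid droplet genes tested, 6 rose in IF and 8 in FMD vs FED, and 6 and 5 did so after scaling. The background of genes called higher was 10.3% in IF and 35.5% in FMD from deposited values, and 3.69% and 5.49% after scaling. Plin2, which coats lipid droplets, was at 234, 308 and 296 TPM in FED, 635, 545 and 654 in IF and 2212, 1086 and 833 in FMD, with FMD library 1 the highest. It rose by 1.13 (adjusted p = 0.018) in IF and 2.18 (adjusted p = 0.00033) in FMD by limma, and its IF call was lost without FED library 1 or any of the IF libraries, with an adjusted p of up to 0.079. Pnpla2, the adipose triglyceride lipase, rose by 1.28 and 2.13 (adjusted p = 0.0032 and 8.5e-05 by limma). Of 11 mitochondrial and peroxisomal beta-oxidation genes, 10 rose in each comparison, and 8 and 7 did so after scaling, against the same backgrounds. Cpt1a, which admits fatty acids to mitochondria, rose by 1.61 and 2.08 (adjusted p = 0.00094 and 9e-05 by limma). Of acyl-CoA synthetases, 2 were tested and both rose, among them Acsl1, which activates long chains, by 1.57 (adjusted p = 0.0029) in IF and 0.92 (adjusted p = 0.012) in FMD by limma. The FMD call of Acsl1 was lost without FED library 1, with an adjusted p of 0.054, and after scaling.

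Adipocytes also express the lipogenic enzymes, and 3 of 8 adipocyte markers were in the table. Their summed TPM was 14 to 20.1 in FED, 20.5 to 50.8 in IF and 27.2 to 97.9 in FMD, so the FED and IF ranges nearly met. Fabp4 was at 30.5, 6.05 and 6.72 TPM in IF, against 5.81 to 9.01 in FED. In FMD it was at 80.3, 28.1 and 11.5 TPM. It was called higher in FMD vs FED (log2 fold change 1.87, adjusted p = 0.028 by limma) and not in IF. Lipe and Pparg were called higher in IF and in FMD vs FED from deposited values. After scaling, none of these calls of Fabp4, Lipe and Pparg held. Fabp4 made up most of the sum in FMD library 1, at 80.3 TPM, the library with the lowest Fasn and Acss2 of its group. Of 5 stellate cell markers 2 were in the table, Dcn and Col1a1, with a summed TPM of 65.0 to 91.8 in FED, 121 to 157 in IF and 106 to 214 in FMD, nearly all of it Dcn. Dcn was at 181% of its FED mean in IF and 194% in FMD, and Col1a1 at 81.5% and 78.9%, with 0.27 to 1.63 TPM in all libraries. The cholangiocyte marker Krt19, 1 of 4, had a TPM of 0.76 to 1.78 in FED, 1.02 to 2.06 in IF and 1.22 to 4.07 in FMD. Markers of macrophages, endothelial cells and blood cells were not analysed here. The part of other cell types in the levels of the 3 enzymes was not tested.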

How the data were processed

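Liver RNA of 9 mice (3 FED, 3 IF, 3 FMD) was isolated by the authors, enriched with oligo-dT, made into strand-specific libraries and sequenced with DNBSEQ at BGI, who provide the Dr. Tom tool for its analysis. The deposited values are TPM, computed by the authors over all transcripts they quantified. The submitters' processing notes name the build mm39 and DESeq2. The aligner is not given in the sources used here. The table lists 5608 genes, 48 of them at 0 in all libraries, and 0 value columns were left unused. TPM keeps no depth and the table covers part of each library, so depth is unknown and no counting interval is given. Each library is 1 mouse, and p-values measure the spread between these mice.

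For 4665 genes that reached a mean of 1 TPM, log2(TPM + 1) was fitted in 1 model of all 9 libraries (R 4.3.3, limma 3.58.1, lmFit and eBayes with a trend). A call required an adjusted p (Benjamini-Hochberg) under 0.05 and a change of more than 1.5-fold, the limits the study used. The fit was run on simulated data with independent noise and changes in both directions. These held no shift over all genes, so the simulation does not cover the shift seen in the restricted groups. Members, gene lists and comparisons were chosen with earlier results of these data known. Named genes are the members, up to 5 called genes of a list with the smallest adjusted p, listed key genes and cell type markers, and the 5 genes most like each member. Others (Ces2e, Gas1, Slc25a1, Pgd, Idh1 and Rpe) were named after their values were seen, and some listed genes are not reported here. Promoters and neighbours come from RefSeq (GRCm38.p6) and shared windows from GENCODE M21, and no coordinate was converted to mm39. Of the table's gene identifiers, 5605 were found in RefSeq. Further tools were matplotlib 3.10.9, pandas 2.3.3, numpy 2.4.6 and python 3.11.15.

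Alternatives were a pseudocount of 0.1, no filter on low values, scaled TPM, 1 fit per pair of groups, no trend, a replicate block, no limit on the fold change, and each library left out in turn.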

Additional observations from a re-analysis of the deposited data

How the results depend on the processing

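Depth is unknown and each group holds 3 mice. With scaled TPM the counts of called genes were 333 for IF (553 from deposited values) and 519 for FMD (1732) against FED, and 104 in FMD vs IF (240), those of pathway genes 6 (3) for IF vs FED and 0 (2) for FMD vs IF, and the log2 fold changes in FMD vs FED -5.98 for Scd1, -1.81 for Fasn and -2.23 for Acss2. With no limit on the fold change 1112, 3135 and, in the pathway in IF vs FED, 5 genes were called. With 1 fit per pair of groups there were 24 genes in FMD vs IF, of pathway genes 0 there and 5 in IF vs FED, and without the filter 1 pathway gene in FMD vs IF. With the replicate block 772 genes were called in FMD vs IF, and of pathway genes 4 there and 5 in IF vs FED. Number 4 occurs in FMD only, so this block in effect also takes FMD library 4 out of the comparisons, whose removal alone gave 819 calls in FMD vs IF. The numbers were not taken as pairs, since the labels do not say what they stand for. Deviations from the group means correlated across genes at 0.0035 to 0.177 over 7 same-numbered pairs, all of them positive and 4 over 0.1. Pairs with different numbers ran from -0.20 (IF library 3 with FMD library 2) to 0.21 (IF library 3 with FMD library 4). The libraries numbered 1 correlated best with each other, whereas libraries 2 and 3 of FED and IF did not all correlate best with their own number. Whether the numbers mark a shared batch was not tested. The causes of the changes in the counts were not tested either. With 1 library left out, called genes ranged from 415 to 609 for IF and 1158 to 2174 for FMD against FED, and 18 (without IF library 2) to 819 (without FMD library 4) in FMD vs IF, and pathway genes from 3 to 5, 6 to 7 and 0 to 5. The log2 fold changes, of IF and then FMD against FED and last between the regimens, ranged from 0.0025 to 0.38, -5.63 to -5.10 and -5.84 to -5.32 for Scd1, -1.70 to -1.14, -1.64 to -0.96 and -0.23 to 0.39 for Fasn, and -1.46 to -1.14, -1.89 to -1.44 and -0.63 to -0.19 for Acss2. Without FED library 3 the uncalled values of Acaca and Elovl6 in FMD vs FED changed sign, to 0.016 and 0.016, at the ends of ranges that began at -0.26 and -0.21. Over 89 pairs of a listed gene and a comparison, called on the deposited or the scaled values, 146 combinations of gene, comparison and setting lost a call, 17 gained one and 1259 kept their direction and call.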
